A study of Mus musculus with 10 samples.

Results

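The genes described here make, export, cut and destroy microRNA precursors: Drosha, Dgcr8, Xpo5, Ran, Dicer1, Tarbp2, Prkra, Lin28a, Lin28b and Dis3l2. They are 10 of the 19938 genes measured, chosen by name, and each is given by its probe set of highest average signal on the 10 arrays. Their RNA was measured in whole lenses of mouse embryos at E13.5, counted in days of embryonic development. DicerCN embryos carried Le-Cre, which expresses Cre recombinase from the Pax6 P0 promoter in the ectoderm of the head surface that forms the epithelium of lens and cornea, together with a pair of loxP-flanked Dicer alleles (Le-Cre+/-;DicerloxP/loxP). Control embryos had the same flanked alleles without the transgene (Le-Cre-/-;DicerloxP/loxP), although the sample titles call them wild type. Each group had 5 arrays, and each array held the RNA of both lenses of 1 embryo. Because only DicerCN embryos carried Cre, an effect of the transgene itself and an effect of losing Dicer cannot be told apart.

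A microRNA begins as a hairpin within a long primary transcript. In the nucleus the ribonuclease Drosha, held by its RNA-binding partner Dgcr8, cuts the hairpin free, and Exportin-5 (Xpo5) carries it to the cytoplasm in a complex with the GTP-bound form of Ran. There Dicer, with its partners Tarbp2 or Prkra, removes the loop and leaves a short duplex, from which 1 strand is loaded into an Argonaute protein. For precursors of the let-7 family this path can be blocked: Lin28a or Lin28b binds the loop. Lin28a recruits enzymes that add uridines to the end of the precursor, and the exonuclease Dis3l2 then degrades it. Lin28 proteins are known from early embryos and stem cells, and let-7 in turn represses their messages.

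The let-7 hairpins are the substrates on which Lin28, Dis3l2 and Dicer meet, and 4 are shown, 2 with and 2 without the letters GGAG between the mature arms, where the zinc knuckles of Lin28 are known to bind. The sequences are those of RefSeq (build GRCm38.p6), written 5′ to 3′, with GGAG in capitals where it lies between the arms.
Mirlet7g (chr9:106178840-106178927, plus strand): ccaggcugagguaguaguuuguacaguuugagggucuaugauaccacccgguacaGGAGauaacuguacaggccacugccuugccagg
Mirlet7a-1 (chr13:48538179-48538272, minus strand): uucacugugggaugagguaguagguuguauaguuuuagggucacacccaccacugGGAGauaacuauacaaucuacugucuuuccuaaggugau
Mirlet7b (chr15:85707319-85707403, plus strand): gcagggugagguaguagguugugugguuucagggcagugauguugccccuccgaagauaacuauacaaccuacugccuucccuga
Mirlet7c-2 (chr15:85706603-85706697, plus strand): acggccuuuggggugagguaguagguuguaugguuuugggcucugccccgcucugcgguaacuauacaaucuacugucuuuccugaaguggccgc
Of the 12 hairpins of the family, Mir98 included, 9 hold GGAG between the arms. The loops of all 12 are 23 to 36 bases long. Over all 645 mouse hairpins with both arms annotated, whose loops differ in length, 53 (8.22%) do, counting the strand of the RNA alone. The letters describe the substrates and say nothing about binding in these lenses. The array labelling drew on the length of transcripts, so the values below are of the messages of the enzymes and not of mature microRNAs.

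The lens genes fixed as markers were all present: 19 of 19 measured ones, among them the crystallins Cryaa and Cryab and the transcription factors Pax6 and Prox1, lay above the median signal of all genes in control lenses. Of these 19 genes 16 were lower in DicerCN lenses, with a median change of −0.13. An unadjusted limma p under 0.05 was found for 7 of them, and for 3708 of all 19938 genes. The gamma crystallin Crygb, whose near-identical relatives can bind its probes, was the only marker of these that passed the test (−0.60, limma adjusted p = 0.0179), and the part of this shift in the results below was not tested. Over the whole array 1303 genes (6.54%) passed the test, 511 higher and 792 lower in DicerCN lenses, where passing means a limma p under 0.05 after Benjamini-Hochberg adjustment over all genes. Arrays differed in markers of other cells. The neural retina score, the mean log2 distance of 17 retinal genes from their control mean, ran from −0.27 to 2.02 in DicerCN lenses and was highest in replicate 5, against −0.36 to 0.41 in control lenses. The score of 16 muscle genes lay between −0.78 and −0.54 in DicerCN lenses, and between −0.85 and 2.61 in control lenses with its highest value in control replicate 4. The score of 18 macrophage genes ran from 0.17 to 1.03 in DicerCN lenses and from −0.35 to 0.36 in control lenses. The score of 11 pigment epithelium genes ran from −0.16 to 1.27 in DicerCN and from −0.17 to 0.16 in control lenses, with 9 of 11 higher in DicerCN lenses, 7 at an unadjusted limma p under 0.05 and 0 past the adjusted threshold. Of 13 genes of the periocular mesenchyme, 1 rose and 2 fell, and their score ran from −0.08 to 0.81 in DicerCN and from −0.38 to 0.81 in control lenses. Signals of Y-linked genes were high in 2 of 5 DicerCN and 3 of 5 control arrays.

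Of the 10 genes, Dis3l2 fell in DicerCN lenses and none rose, against 3.97% of all genes that fell, 2.56% that rose and 6.54% that changed either way. With so few members, 1 call is near what the whole array gives. The median change was −0.05 on the log2 scale, against −0.0014 over all genes, and 8 of the 10 were lower. The signals of DicerCN and control arrays did not overlap in 2 genes, Dis3l2 and Tarbp2, against 4.42% of all genes with DicerCN below control, 2.96% with DicerCN above it and 7.38% in either direction. The other 8 genes overlapped, and their 95% confidence intervals lay within 79.9% to 124% of the control level. Larger shifts in the mean signal of those messages are outside these intervals, and smaller ones could not be resolved with 5 arrays a group.

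**Figure D1:**
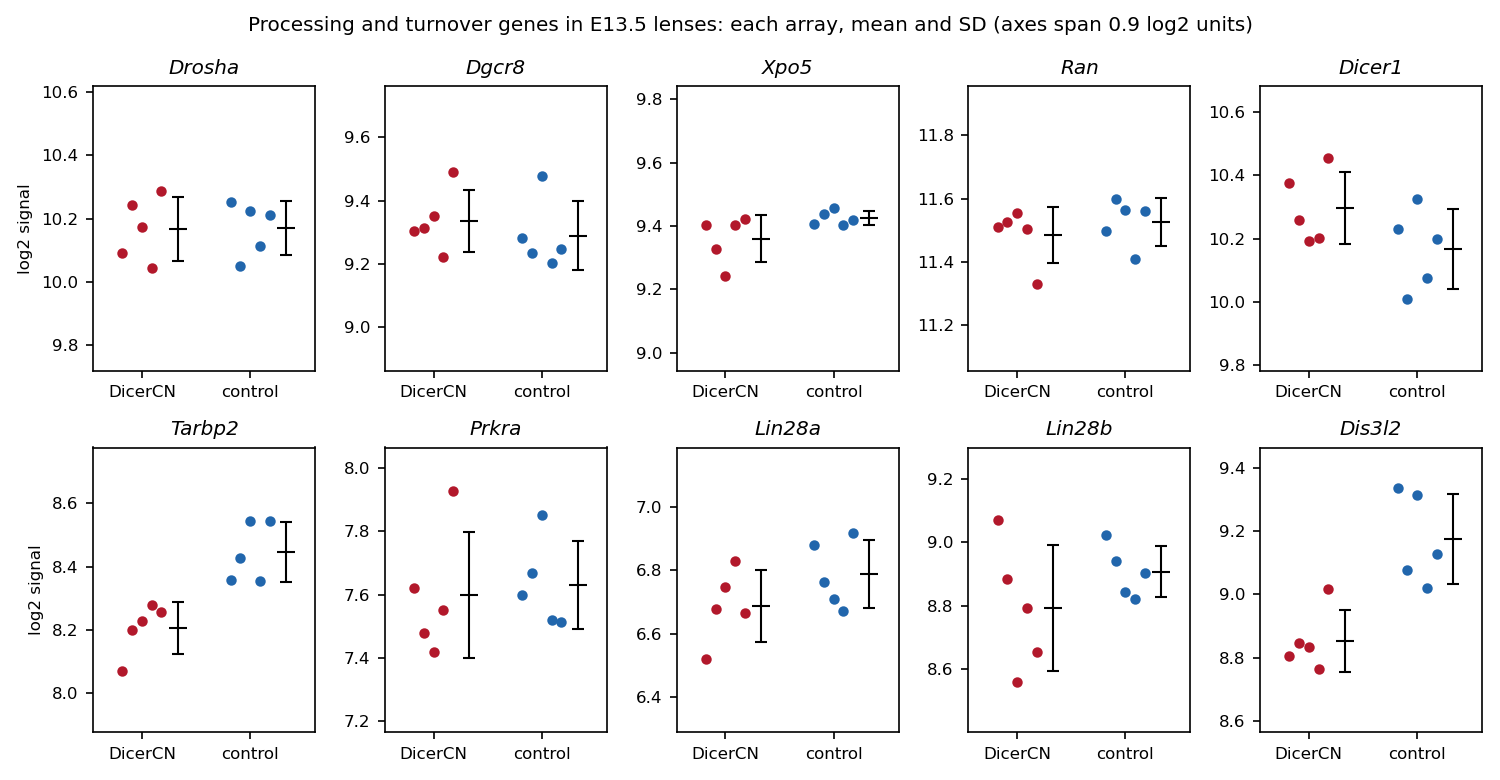
Log2 signal (vertical axes, each spanning 0.9 units) of the 10 genes in each DicerCN (red) and control (blue) array, with the mean and SD of each group as black bars. Dis3l2 and Tarbp2 are the genes in which no DicerCN array reached the lowest control array, and in the other 8 the groups overlap.

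Dis3l2, which codes for the exonuclease that digests uridylated let-7 precursors, had log2 signals of 8.81, 8.85, 8.83, 8.76 and 9.02 in DicerCN replicates 1 to 5, against 9.34, 9.08, 9.31, 9.02 and 9.13 in control replicates 1 to 5. All 5 DicerCN arrays lay below all 5 control arrays, but the highest DicerCN array and the lowest control array were only 0.0041 apart. The means were 8.85 ± 0.10 in DicerCN and 9.17 ± 0.14 in control lenses (SD, n = 5 each). The change was −0.32 (SE 0.08, limma adjusted p = 0.0410, exact permutation p = 0.00794, the smallest that 5 against 5 arrays allow), which is 80.0% of the control signal with a 95% confidence interval of 70.4% to 90.9%. In whole lenses, fewer cells that express the gene and less RNA per cell cannot be told apart.

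The call of Dis3l2 was close to the threshold. Leaving out 1 array ended it in 8 of 10 cases (limma adjusted p between 0.0602 and 0.118). The exceptions were DicerCN replicate 5 and control replicate 4 (0.0298 and 0.0328), the arrays with the highest neural retina and muscle scores. Without both, an alternative chosen after seeing the data, the change was −0.40 (adjusted p = 0.0231). In the 2 DicerCN and 3 control arrays with high Y-linked signals the change was −0.36, and in the remaining 3 and 2 arrays it was −0.31. Macrophage markers moved with the groups: 17 of 18 were higher in DicerCN lenses and 3 passed the test, namely the fractalkine receptor Cx3cr1 (0.73), the colony-stimulating factor receptor Csf1r (0.86) and the protease cathepsin S, Ctss (0.73). In a fit with that score as a covariate, the Dis3l2 change was −0.22 and did not pass (limma adjusted p = 0.444), and 248 genes passed over the whole array. Other lists leaned 1 way too, with 0 genes past the test. All 17 neural retina, 10 vessel endothelium and 6 erythroid genes were higher in DicerCN lenses, and 15 of 16 muscle genes were lower. The muscle and retina leans lay mostly in few arrays. The muscle score was 2.61 in control replicate 4 and −0.85 to −0.49 in the other control arrays, against −0.78 to −0.54 in DicerCN lenses. The neural retina score was 2.02 and 0.81 in DicerCN replicates 5 and 4, and −0.27 to 0.43 in DicerCN replicates 1 to 3. With the neural retina score as the covariate, the Dis3l2 change was −0.38 (limma adjusted p = 0.0388). The part of any of these cells in the Dis3l2 result was not tested further.

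The partners of Dicer were next. Tarbp2, the double-stranded RNA binding protein that holds precursors for Dicer, had 2 probe sets, the only gene of the 10 with more than 1. Its brighter probe set read 8.07, 8.20, 8.23, 8.28 and 8.26 in DicerCN replicates 1 to 5, against 8.36, 8.43, 8.55, 8.36 and 8.54 in control replicates 1 to 5. Every DicerCN array was below every control array, with a gap of 0.08 between the groups. The change of −0.24 (SE 0.07) nevertheless missed the threshold over all genes (limma adjusted p = 0.0782, exact permutation p = 0.00794), and the signal stood at 84.7% of control (95% confidence interval 75.9% to 94.7%).

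The dimmer probe set of Tarbp2 read 7.21, 7.35, 7.39, 7.13 and 7.39 in DicerCN replicates 1 to 5, against 7.58, 7.58, 7.73, 7.60 and 7.62 in control replicates 1 to 5. Here too the groups did not overlap, and the control arrays lay closer together (SD 0.06) than the DicerCN arrays (SD 0.12). Its change was −0.33 (SE 0.08), which passed in a fit with every singly named probe set as a feature (limma adjusted p = 0.0210). Both probe sets therefore ran the same way, and the mean of the pair passed as well (−0.28, limma adjusted p = 0.0292). The dimmer set lost its call without DicerCN replicate 4 (−0.29, adjusted p = 0.0534), without control replicate 3 (−0.30, 0.0541) and after adjustment for the macrophage score (−0.29, 0.229), while its change stayed close to −0.33. Whether the 2 sets share probes, or read the same locus, was not tested. Agreement of the pair is therefore limited evidence on the Tarbp2 message.

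**Figure D2:**
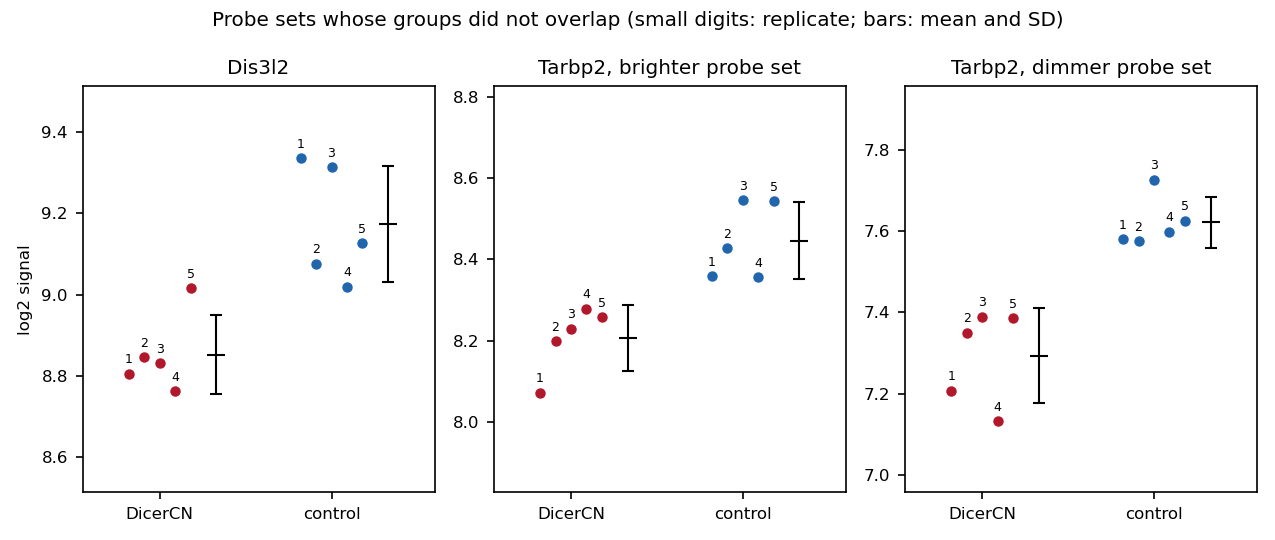
Log2 signal of Dis3l2 and of both Tarbp2 probe sets in each DicerCN (red) and control (blue) array, with replicate numbers above the points and black bars for mean and SD. In all 3 panels the DicerCN arrays lie below the control arrays, by 0.0041 at the closest for Dis3l2 and by 0.08 for the brighter Tarbp2 probe set.

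Prkra codes for the other Dicer partner, known also as an activator of the interferon-induced kinase Eif2ak2. It had signals of 7.62, 7.48, 7.42, 7.55 and 7.93 in DicerCN replicates 1 to 5, against 7.60, 7.67, 7.85, 7.52 and 7.51 in control replicates 1 to 5. DicerCN arrays lay on both sides of the control range, 1 above it, 2 below it and 2 inside it, and the change was −0.03 (SE 0.10, limma adjusted p = 0.925). DicerCN replicate 5 was the highest of its group, and without it the change was −0.11.

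Dicer1 is the gene whose deletion defines the DicerCN group. It read 10.37, 10.26, 10.19, 10.20 and 10.45 in DicerCN replicates 1 to 5, against 10.23, 10.01, 10.32, 10.07 and 10.20 in control replicates 1 to 5. Of the 5 DicerCN arrays, 3 lay within the control range and 2 above it, and none was below. The signal was 109% of control with a 95% confidence interval of 96.4% to 124% (change 0.13, SE 0.08, limma adjusted p = 0.472). The interval leaves room for a drop of the probe set signal by a few percent at most. The labels do not name the flanked exons, and a probe set that spans the transcript can read a message that lacks a few exons, so the value does not check the genotype. In arrays with high Y-linked signals the Dicer1 difference was 0.03 and in the others 0.20.

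The distance between the Dicer1 and Tarbp2 signals within an array was larger in DicerCN lenses. This log2 difference averaged 2.09 ± 0.16 in DicerCN lenses, with a range of 1.92 to 2.30, and 1.72 ± 0.11 in control lenses, with a range of 1.58 to 1.87 (SD, n = 5 each). The difference between groups was 0.37 (exact permutation p = 0.00794, adjusted p = 0.0476 over 6 partner pairs). The Tarbp2 signals alone did not overlap between the groups and had the same exact p of 0.00794, the smallest possible. The pair therefore adds no separate result to that of Tarbp2. The pairs were also picked with results of these data known, so the test is no independent evidence. For Drosha with Dgcr8 (−0.05), Dicer1 with Prkra (0.16), Xpo5 with Ran (−0.02), Lin28a with Dis3l2 (0.22) and Lin28b with Dis3l2 (0.21) the adjusted exact p ran from 0.167 to 0.746. The size of such a difference depends on the probes, so it carries no information on how much of each protein was present.

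**Figure D3:**
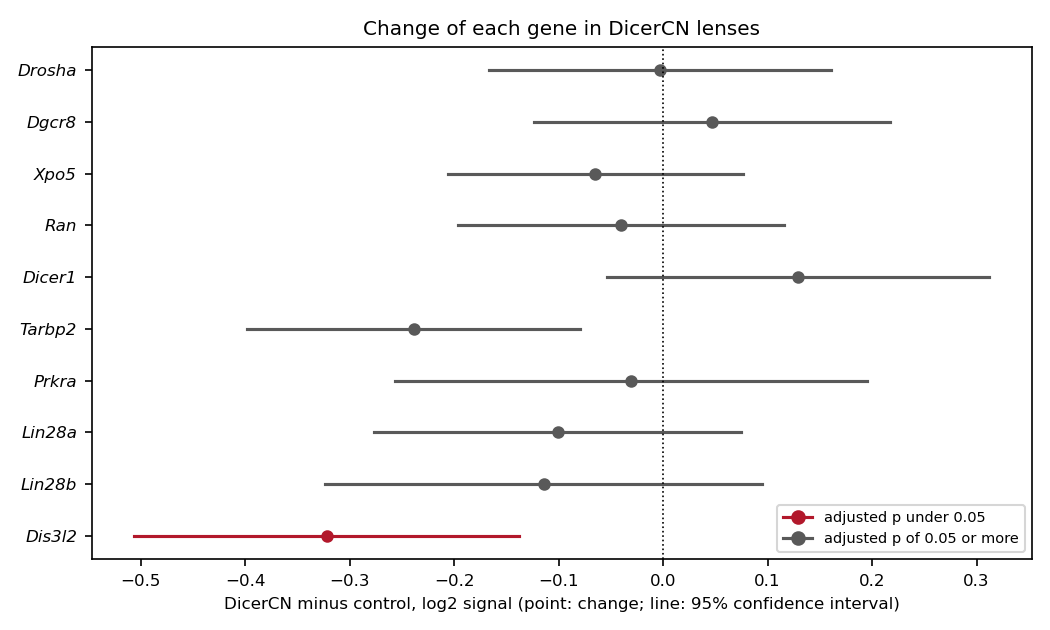
Change of each gene, DicerCN minus control in log2 signal (points), with 95% confidence intervals (lines), ordered from nuclear processing at the top to decay at the bottom. Dis3l2 (red, −0.32) passed the test, the Tarbp2 interval also lies below 0, and the other 8 intervals cross 0.

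Upstream of Dicer the messages of the nuclear cutting complex were close between the groups. Drosha read 10.09, 10.24, 10.17, 10.04 and 10.29 in DicerCN replicates 1 to 5, against 10.25, 10.05, 10.22, 10.11 and 10.21 in control replicates 1 to 5. Its change was −0.0027 (SE 0.08, limma adjusted p = 0.992), the smallest of the 10, with a 95% confidence interval of 89.1% to 112% of control.

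Dgcr8, the RNA-binding partner of Drosha, read 9.30, 9.31, 9.35, 9.22 and 9.49 in DicerCN replicates 1 to 5, against 9.28, 9.24, 9.48, 9.20 and 9.25 in control replicates 1 to 5. One array in each group, DicerCN replicate 5 and control replicate 3, stood above the others, and the change was 0.05 (SE 0.08, limma adjusted p = 0.832). The Dgcr8 gene holds a microRNA hairpin of its own, and Drosha is known to cut the Dgcr8 message. The mature arms of that microRNA lie inside the gene on the minus strand of chromosome 16 (RefSeq, GRCm38.p6) and are shown with the seed, bases 2 to 8, in capitals.
mmu-miR-1306-5p (chr16:18284288-18284310): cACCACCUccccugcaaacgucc
mmu-miR-1306-3p (chr16:18284248-18284268): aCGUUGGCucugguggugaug
The Dgcr8 probe set gives 1 value for the whole gene, so cutting at the hairpin could not be followed.

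The export step showed no change that passed the test. Xpo5, the carrier of hairpin precursors, read 9.40, 9.33, 9.24, 9.40 and 9.42 in DicerCN replicates 1 to 5, against 9.41, 9.44, 9.46, 9.40 and 9.42 in control replicates 1 to 5. The control arrays lay close together (SD 0.02, against 0.07 in DicerCN lenses), and 3 of 5 DicerCN arrays lay below all of them. The change was −0.06 (SE 0.07, limma adjusted p = 0.679, exact permutation p = 0.0794).

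Ran, the GTPase that loads exportins, read 11.51, 11.53, 11.55, 11.50 and 11.33 in DicerCN replicates 1 to 5, against 11.50, 11.60, 11.56, 11.41 and 11.56 in control replicates 1 to 5. Only DicerCN replicate 5 fell outside the control range, and the change was −0.04 (SE 0.07, limma adjusted p = 0.844). Ran has near-identical copies in the mouse genome that can bind the same probes, so its value may mix loci. Of 13 other genes of the Ran cycle and of nuclear transport 0 rose and 0 fell, with a median change of −0.11. An unadjusted limma p under 0.05 was found for 3 of the 13, against 3708 of all 19938 genes. The smallest p was that of Rcc1, the exchange factor that charges Ran with GTP (8.33 ± 0.16 in DicerCN and 8.06 ± 0.07 in control lenses, SD, n = 5 each, change 0.26, limma adjusted p = 0.0897).

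The let-7 blockers Lin28a and Lin28b did not pass the test, and their groups overlapped. Lin28b read 9.07, 8.89, 8.56, 8.79 and 8.66 in DicerCN replicates 1 to 5, against 9.02, 8.94, 8.84, 8.82 and 8.91 in control replicates 1 to 5. DicerCN lenses spread more widely (SD 0.20, against 0.08 in control lenses), from above the highest to below the lowest control array. The change was −0.11 (SE 0.10, limma adjusted p = 0.608, 95% confidence interval 79.9% to 107% of control).

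Lin28a read 6.52, 6.68, 6.75, 6.83 and 6.67 in DicerCN replicates 1 to 5, against 6.88, 6.76, 6.71, 6.67 and 6.92 in control replicates 1 to 5. The groups overlapped in 3 of 5 DicerCN arrays, and the change was −0.10 (SE 0.08, limma adjusted p = 0.582, 95% confidence interval 82.6% to 105% of control). The Lin28a signal lay near the median of all genes in control lenses (percentile 49.4), and the files give no detection call, so it is not known whether it lay above background. Lin28b lay at percentile 82.8. These are probe set signals, which do not rank the 2 messages by abundance.

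Genes known to work beside the 10 were read from the same fit. Over the whole array, 3708 of 19938 genes had an unadjusted limma p under 0.05. Of 15 cofactors of the nuclear step, such as the helicases Ddx5 and Ddx17, 0 rose and 0 fell, with a median change of 0.02. The unadjusted limma p was under 0.05 for 2 of the cofactors. The smallest p was that of Adarb1, an adenosine deaminase that edits double-stranded RNA (8.14 ± 0.10 in DicerCN and 7.93 ± 0.05 in control lenses, SD, n = 5 each, limma adjusted p = 0.112), and its groups did not overlap. Of 15 genes of tailing and decay, among them the uridylating enzymes Tut4 and Tut7, 0 rose and 0 fell (1 at an unadjusted limma p under 0.05), with a median of 0.05. Tsnax, a subunit of a small-RNA nuclease, had the smallest p (change −0.19, limma adjusted p = 0.259). Tut4 and Tut7, which act with Lin28 on let-7 precursors and are named after their values were seen, stood at 0.15 (SE 0.10) and 0.10 (SE 0.08). Dis3 and Dis3l, the relatives of Dis3l2 that serve the RNA exosome, were also named after their values were seen and stood at −0.09 (SE 0.09) and −0.08 (SE 0.09).

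Of 13 genes of the RNA exosome, the multisubunit 3′ to 5′ nuclease, 1 fell and 0 rose, against 3.97% of all genes that fell, and the median change was −0.07. Exosc4, a subunit of the exosome ring, had signals of 7.51, 7.31, 7.49, 7.45 and 7.53 in DicerCN replicates 1 to 5, against 7.88, 7.66, 7.85, 7.56 and 7.92 in control replicates 1 to 5. The groups did not overlap, and the change was −0.31 (SE 0.09, limma adjusted p = 0.0493). Of 10 other proteins that bind double-stranded RNA, 1 fell and 0 rose, with a median of 0.05. It was Dus2, a tRNA dihydrouridine synthase (7.21 ± 0.16 in DicerCN and 7.57 ± 0.14 in control lenses, SD, n = 5 each, change −0.36, limma adjusted p = 0.0428), with DicerCN replicate 1 inside the control range. Neither call held after adjustment for the macrophage score, with changes of −0.26 for Exosc4 and −0.47 for Dus2 (limma adjusted p = 0.392 and 0.108), or for the neural retina score, with changes of −0.32 and −0.34 (0.102 and 0.112). Apart from the −0.26 of Exosc4, these changes were about as large as or larger than those without a covariate. With 1 array left out, Exosc4 passed only without control replicate 4 (0.0236) and otherwise had an adjusted p of 0.0613 to 0.136. Dus2 passed only without DicerCN replicate 1 (0.0135) or control replicate 5 (0.0387), and otherwise had 0.0544 to 0.108.

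Some arrays lay at the edge of their group in many of the genes. DicerCN replicate 5 was the highest of its group in 6 of the 10 genes and control replicate 4 the lowest of its group in 7. With both left out, Dis3l2 stayed the only 1 of the 10 that passed by its brightest probe set, and the Dicer1 change was 0.07 rather than 0.13. The dimmer Tarbp2 probe set passed there as well (−0.36, limma adjusted p = 0.0406).

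**Figure D4:**
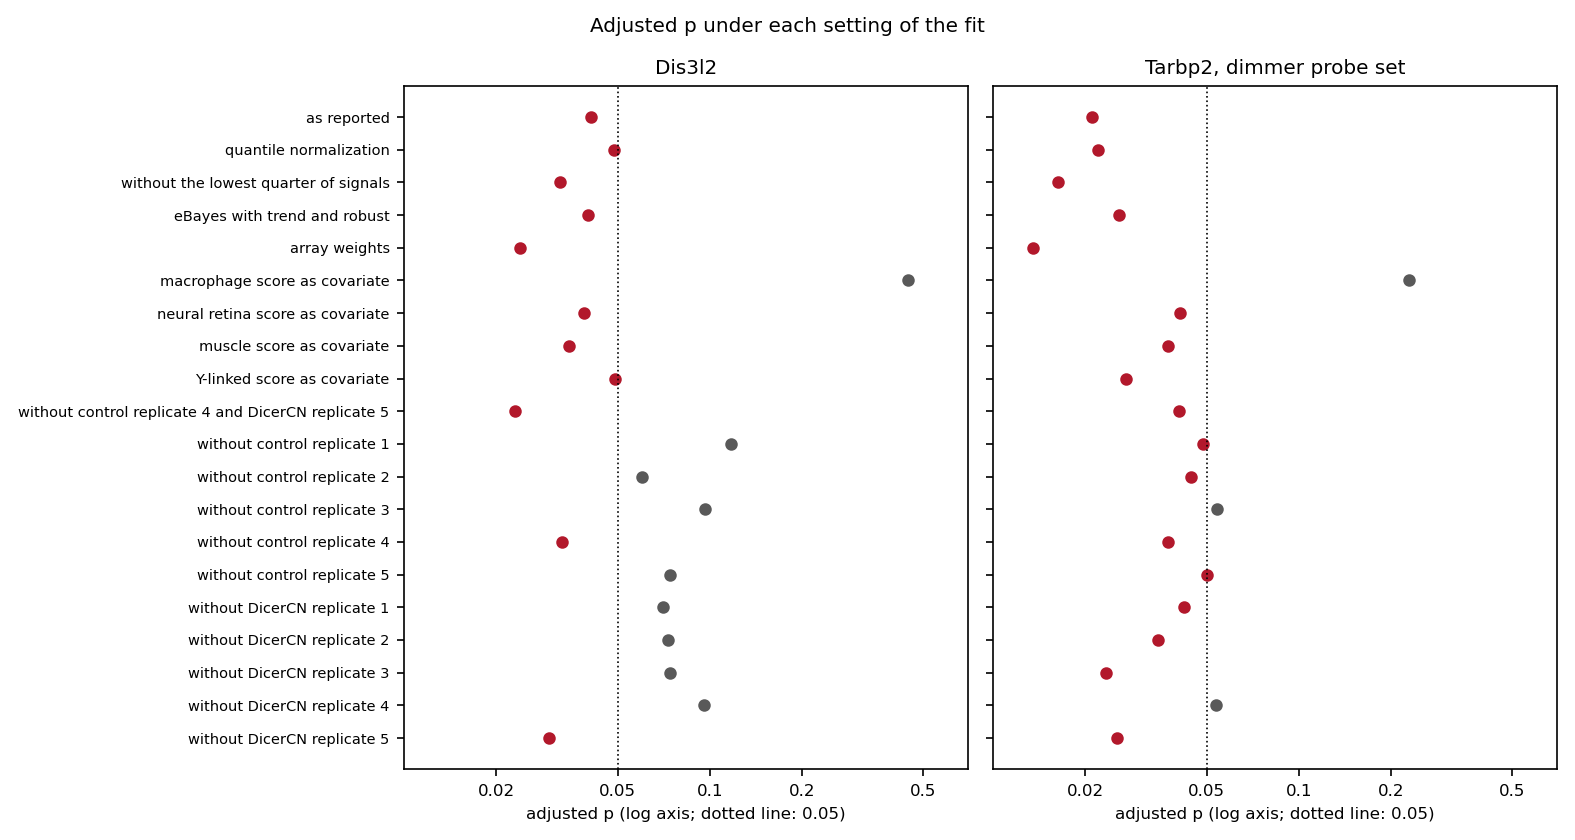
Adjusted p (horizontal log axis, dotted line at 0.05) for Dis3l2 and for the dimmer Tarbp2 probe set under each setting named on the left, with values under 0.05 in red. Dis3l2 passes without 2 of the 10 arrays left out singly and the Tarbp2 probe set without 8 of 10, and with the macrophage covariate neither passes. The replicate block, probe set means and all probe sets as features are not plotted. With the replicate block, the limma adjusted p was 0.0765 for Dis3l2 and 0.0466 for the dimmer Tarbp2 probe set.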

How the data were processed

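The deposited table holds log2 signals of 35557 probe sets on 10 arrays (1.91 to 15.2, array medians 6.54 to 6.56). That they are log2 is taken from this range. Array medians this close point to normalization before deposit, which was not tested. The submitters' processing notes name GCOS, and the sources used here do not give the method of normalization. Probe sets with 1 symbol in the platform annotation (21789) were kept, and of 999 genes with several the one with the highest mean was taken. The 2 groups were compared by limma 3.58.1 in R 4.3.3 (lmFit, eBayes, 2-sided, Benjamini-Hochberg over 19938 genes, threshold 0.05), after testing the script on simulated data. Single values had exact 2-sided permutation tests over 252 partitions of the arrays. Precision is set by the number of arrays, and the median SE of a log2 change was 0.0986. The labels describe the samples as independent embryos. Members, related lists and pairs were chosen with earlier results of these data known. Named genes are the 10 members and, of each related list, genes past the threshold or otherwise the 1 of smallest p, with Tut4, Tut7, Dis3 and Dis3l and the macrophage markers added after their values were seen. The alternatives tried were a replicate block, quantile normalization, probe set means, a signal filter, another variance model, array weights, all probe sets, leaving out arrays and 4 marker scores as covariates.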

Additional observations from a re-analysis of the deposited data

Results flagged for a closer look

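In 2 of the 20 groups of 5 arrays examined, 1 array stood far from the rest by Dixon's gap test, which chance alone does in about 1 of 20 groups. Ran in DicerCN replicate 5 read 11.33, below the other DicerCN arrays at 11.50 to 11.55. Dgcr8 in control replicate 3 read 9.48, above the other control arrays at 9.20 to 9.28.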

How the results depend on the processing

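The array count of 1303 genes was 248 with the macrophage covariate and between 784 and 1295 with 1 array left out, lowest without control replicates 1 (784) and 2 (865). The count of 1 of the 10 genes was 0 with the macrophage covariate and 2 over probe set means or with every probe set as a feature (the second being Tarbp2), and between 0 and 1 with 1 array left out. With the replicate number as a block it was 0 (Dis3l2 limma adjusted p = 0.0765, Tarbp2 0.120), as were the exosome and double-stranded RNA lists. Same-numbered arrays of the 2 groups correlated between −0.09 and 0.19 in their deviations, and 2 of 10 arrays matched best with their own number. These values show no clear pairing by number, but 5 pairs are too few to exclude a weak pairing. The exosome count of 1 was 0 with trend and robust variances and with the macrophage, retina or Y-linked score, 2 with array weights, and between 0 and 1 with 1 array left out. The count of 1 double-stranded RNA binding gene was 0 with the macrophage or retina score and, chosen after seeing the data, without control replicate 4 and DicerCN replicate 5. It ranged between 0 and 1 with 1 array left out. The Ran list count of 0 was 1 with array weights and between 0 and 1 with 1 array left out. The cause of these shifts was not tested. No alternative brought Drosha, Dgcr8, Xpo5, Prkra, Dicer1, Lin28a, Lin28b or Ran past the threshold. Changes of Dis3l2 ran from −0.40 to −0.22 and kept their sign. With 5 arrays a group and no detection calls, small changes of dim messages are beyond reach.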
